A study of Mus musculus with 15 samples.

Results

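The comparison set 3 57SCLC_allo tumors (275, 316 and 317) against 3 46LCNEC_allo tumors (312, 319 and 321), 6 of the 15 mouse samples in the series, across the 55359 genes of the expression matrix. Samples were chosen by their labels. 57SCLC_allo tumors grew from the 57SCLC cell line, established from a small cell lung carcinoma (SCLC), and 46LCNEC_allo tumors from the 46LCNEC line, established from a large cell neuroendocrine carcinoma (LCNEC). Both carcinomas had formed in the lungs of QKO mice, a strain in which Cre recombinase removes floxed tumor suppressors, among them Rb1 and Trp53, on a background that also lacks a working Rbl1 gene. Cre came from an airway-delivered adenovirus, driven by the keratin 5 promoter (Ad-K5cre) for SCLC and by the cytomegalovirus promoter (Ad-CMVcre) for LCNEC. Cells were injected under the skin of immunocompetent QKO mice, so that every tumor also held tissue of the recipient. Cultured cells of each line (57SCLC_cell and 46LCNEC_cell, 3 samples each) and normal lung of littermates (Lung, 3 samples) are set beside the tumors below, with no test. Each group stands for 1 cell line, so that tumor type, cell line, Cre promoter and recipient mice cannot be told apart in the comparison. Age and sex of the recipients were not given in the sources used here.

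SCLC and LCNEC are the high-grade neuroendocrine cancers of the lung. Neuroendocrine cells store peptide hormones in dense-core granules, release them through the same vesicle machinery that neurons use, and are set up by neural transcription factors such as Insm1. Cells outside this lineage keep neural genes silent through the repressor Rest, and signalling through Notch receptors, which induces repressors of the Hes and Hey families, opposes the neuroendocrine fate. Lung carcinomas that lack the neuroendocrine program often carry genes of matrix, adhesion and the Hippo pathway effectors Yap1 and Wwtr1 instead.

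Values are normalized counts, reads per gene divided by 1 scale factor per sample. The tumors held 9480244 to 20378892 reads in 57SCLC_allo and 21917273 to 26502525 in 46LCNEC_allo. Because 3 reads, taken here as the limit of detection, are worth up to 7.18 normalized counts in 57SCLC_allo and up to 3.97 in 46LCNEC_allo, a fold change against a group at or under 3 reads in every tumor is given as a lower bound. The 18S ribosomal gene Rn18s-rs5 took 1.96 to 5.85% of the reads in 57SCLC_allo and 6.69 to 11.5% in 46LCNEC_allo. Values are listed below in the order 275, 316, 317 for 57SCLC_allo and 312, 319, 321 for 46LCNEC_allo. A gene was called when its p from limma, adjusted by Benjamini and Hochberg's method, did not exceed 0.01 and the groups differed 2-fold or more, and log2 fold changes are 57SCLC_allo minus 46LCNEC_allo on the log2(normalized count + 1) scale with n = 3 tumors per group. Members of the gene lists, 31 in all with 3 more from the study, were chosen with earlier results on these data known, so that a list's count is a description beside the share over all genes. That share was 16.1% for genes higher in 57SCLC_allo, 14.2% for genes higher in 46LCNEC_allo and 30.4% either way. Of the list genes, 21 were listed at 0 in all 15 samples, among them B2m and Cav1, which most cells use. For these nothing beyond the listed 0 can be read from the matrix.

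Promoters of some of the granin, Notch and Hippo genes named below, all of them with a match, are shown first, as the sequences beside which the levels can be read. RefSeq promoters (build GRCm38.p6, 250 bases before to 50 after a transcription start, 5′ to 3′ on the gene's strand) were searched on both strands for CAGCTG, an E-box bound by neural basic helix-loop-helix factors, CAGCACC, a stretch of the Rest site, ACATTCC, the TEAD site, TGACTCA, the AP-1 site, and TGTGGTT, the Runx site. Capitals mark the matches. A match is a description of the letters and not evidence of binding. Over all 32851 promoters of the table, 16.3% held the E-box, 7.14% the Rest stretch, 3.85% the TEAD letters, 5.20% the AP-1 letters and 5.27% the Runx letters.
Chga, chr12:102554691-102554990, plus strand: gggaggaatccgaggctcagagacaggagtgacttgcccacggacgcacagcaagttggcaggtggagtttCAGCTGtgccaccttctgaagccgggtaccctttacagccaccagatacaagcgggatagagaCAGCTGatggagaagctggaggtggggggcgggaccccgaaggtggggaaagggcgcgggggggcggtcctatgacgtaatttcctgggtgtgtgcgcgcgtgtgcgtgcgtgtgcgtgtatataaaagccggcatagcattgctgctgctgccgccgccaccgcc
Scg2, chr1:79439977-79440276, minus strand: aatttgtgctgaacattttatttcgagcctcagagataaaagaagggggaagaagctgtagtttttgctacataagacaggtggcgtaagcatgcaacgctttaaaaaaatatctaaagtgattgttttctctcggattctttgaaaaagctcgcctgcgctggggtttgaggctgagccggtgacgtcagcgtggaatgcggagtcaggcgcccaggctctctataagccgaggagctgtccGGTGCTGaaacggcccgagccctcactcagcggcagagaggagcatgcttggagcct
Dll3, chr7:28301736-28302035, minus strand: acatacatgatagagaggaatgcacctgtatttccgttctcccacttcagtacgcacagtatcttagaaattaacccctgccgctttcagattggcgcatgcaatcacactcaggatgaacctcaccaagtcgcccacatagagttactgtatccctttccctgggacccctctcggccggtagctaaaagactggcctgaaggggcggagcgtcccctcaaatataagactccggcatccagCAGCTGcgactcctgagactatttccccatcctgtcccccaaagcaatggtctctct
Notch2, chr3:98013288-98013587, plus strand: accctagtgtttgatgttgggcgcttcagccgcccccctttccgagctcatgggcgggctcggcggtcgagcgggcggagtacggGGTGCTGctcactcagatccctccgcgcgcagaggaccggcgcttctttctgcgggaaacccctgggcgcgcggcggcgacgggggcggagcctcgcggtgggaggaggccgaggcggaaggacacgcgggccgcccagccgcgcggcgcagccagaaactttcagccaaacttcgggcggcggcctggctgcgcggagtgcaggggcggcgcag
Ajuba, chr14:54577612-54577911, minus strand: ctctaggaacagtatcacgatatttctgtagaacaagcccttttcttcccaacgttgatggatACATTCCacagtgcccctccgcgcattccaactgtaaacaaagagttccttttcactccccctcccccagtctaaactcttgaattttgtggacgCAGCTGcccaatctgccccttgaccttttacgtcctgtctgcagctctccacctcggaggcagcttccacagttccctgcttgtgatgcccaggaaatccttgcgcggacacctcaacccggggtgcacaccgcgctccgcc
The Chga promoter held the E-box at 2 places, that of Dll3 held it once, and that of Ajuba held it beside the TEAD letters. The Rest stretch stood, in reverse, in the promoters of Scg2 and Notch2, which were higher in opposite groups. Dll1, higher in 57SCLC_allo, has 2 promoters in the table, of which 1 held both the Rest stretch and the E-box. None of the 5 motifs was found in the promoters of Pcsk1, Jag2, Wwtr1, Maml2 or Fosl2. These promoters and those of Dll1 are not shown, and none was held for Rest or Tead4. Promoters were held for 69.5% of the tested genes, so a comparison of motif shares between the groups of called genes is void.

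Of 17502 genes tested, 5312 were called (30.4%), 2821 higher in 57SCLC_allo (16.1%) and 2491 higher in 46LCNEC_allo (14.2%). Large differences lay mostly on the 57SCLC_allo side, where 1619 genes were at least 8-fold higher, while 741 were at least 8-fold higher in 46LCNEC_allo. For 572 of the genes higher in 57SCLC_allo, all 3 46LCNEC_allo tumors were at or under 3 reads, and the reverse held for 189 genes. Scaling by library size in place of the deposited factors gave 3580 and 1957 calls, and it moved the median of all genes from 0.01 to 0.29. In bulk tumors fewer cells of a kind and less RNA per cell cannot be told apart. Tumors of 1 group resembled each other more than the tumors of the other. Spearman's rho across genes was 0.984 to 0.992 within 57SCLC_allo, 0.960 to 0.973 within 46LCNEC_allo and 0.738 to 0.773 between groups. The groups did not overlap for 65.9% of all genes tested, a share that includes every called gene. Within 46LCNEC_allo, tumor 321 was at least 4-fold above both other tumors for 533 genes, against 97 for tumor 312 and 95 for tumor 319. In 57SCLC_allo that number was 56 for tumor 275 and 14 and 18 for tumors 316 and 317.

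**Figure D1:**
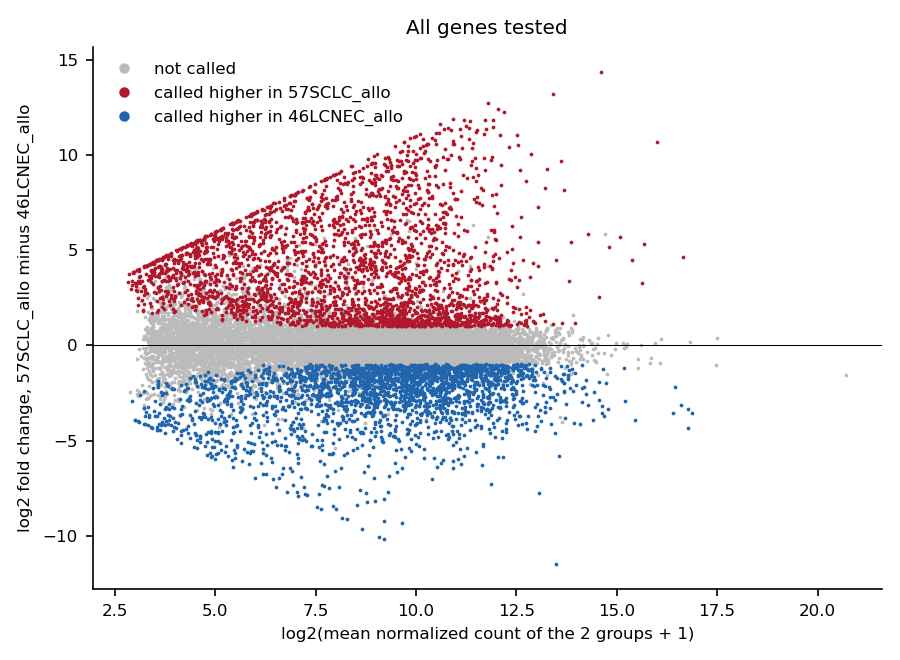
Log2 fold change (57SCLC_allo minus 46LCNEC_allo) of each of the 17502 tested genes on the vertical axis against the log2 mean normalized count of both groups on the horizontal axis. Red points are the 2821 genes called higher in 57SCLC_allo, blue points the 2491 called higher in 46LCNEC_allo and grey points the rest, and the red points reach farther from 0 than the blue ones.

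The genes removed in the model are first, as a check of the labels. None of them was called. Rb1 had 244, 469 and 411 normalized counts in 57SCLC_allo against 236, 183 and 289.8 in 46LCNEC_allo (log2 fold change 0.63 ± 0.30 (SE), adjusted p = 0.116), and the ranges of the groups overlapped. Trp53 was at 1183, 1176 and 1016 normalized counts in 57SCLC_allo against 968, 1050 and 1242 in 46LCNEC_allo (log2 fold change 0.05 ± 0.13 (SE), adjusted p = 0.752), and Rbl1 at 2403, 2831 and 2560 normalized counts in 57SCLC_allo against 1172, 1735 and 1339 in 46LCNEC_allo (log2 fold change 0.89 ± 0.16 (SE), adjusted p = 0.00325). Whole-gene counts include exons outside the deleted parts and, in tumors, RNA of the recipient, so these levels do not check the deletions. Cultured cells, without recipient tissue, also held RNA of these genes. Rb1 was at 414 ± 314 (SD, n = 3) in 57SCLC_cell and 85.7 ± 17.2 in 46LCNEC_cell. Trp53 was at 997 ± 70.1 and 1465 ± 72.0, and Rbl1 at 2881 ± 247 and 1619 ± 112, in the same order. Of 7 markers that the study stained in cultured cells or in tissue, Sstr2 was listed at 0 everywhere and Scgb1a1 was too low to test. Ncam1, the neural adhesion molecule used to diagnose both cancers, was at 5647, 6039 and 6376 normalized counts in 57SCLC_allo against 3058, 7384 and 4040 in 46LCNEC_allo and was not called (log2 fold change 0.42 ± 0.30 (SE), adjusted p = 0.279). In culture Ncam1 was higher in the LCNEC line, at 5113 ± 1167 in 57SCLC_cell and 29936 ± 1464 in 46LCNEC_cell. The lung and neuroendocrine factor Nkx2-1 was at 24223, 28338 and 26185 normalized counts in 57SCLC_allo against 5.3, 165 and 761 in 46LCNEC_allo (log2 fold change 8.14 ± 1.58 (SE), adjusted p = 0.00457). Its spread in 46LCNEC_allo was wide, and the call was lost without any of tumors 319, 275, 316 or 317 (adjusted p 0.0106 to 0.0215). Trp63, the basal cell factor, was at 0, 4.25 and 0 normalized counts in 57SCLC_allo against 523, 73.7 and 87.4 in 46LCNEC_allo, at least 31.8-fold higher in 46LCNEC_allo (adjusted p = 0.00154), with tumor 312 far above the other two and a bound of 11.2-fold without it. Chga, the chromogranin A gene, was at 10973, 12847 and 11748 normalized counts in 57SCLC_allo against 18.5, 1.05 and 12.2 in 46LCNEC_allo. By staining, the study described its subcutaneous tumors as positive for chromogranin A, CGRP or the lung factor above. It described them as negative for the basal cell factor and for CC-10, the product of Scgb1a1. Chga, Nkx2-1 and Calca (below) RNA was far lower in 46LCNEC_allo than in 57SCLC_allo, which does not show that the proteins were absent. Nkx2-1 was at 2516 ± 330 in 46LCNEC_cell. Trp63 RNA was above the detection limit in each 46LCNEC_allo tumor. Scgb1a1 had a mean of 1.93 in 57SCLC_allo and 3.28 in 46LCNEC_allo, against 184700 in Lung. How RNA relates to the staining was not tested.

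Genes of hormone granules and their processing enzymes were among the most different. In the granin and prohormone list 12 of 15 tested genes were higher in 57SCLC_allo and none in 46LCNEC_allo, with a median log2 fold change of 8.06 against 0.01 over all genes. Scg2, a granin packed into dense-core granules, was at 3756, 5998 and 4822 normalized counts in 57SCLC_allo against 0, 1.05 and 1.11 in 46LCNEC_allo, at least 1223-fold higher in 57SCLC_allo (log2 fold change 11.52 ± 0.38 (SE), adjusted p = 6.75e-06). Pcsk1, the convertase that cuts prohormones, was at 3198, 4585 and 3884 normalized counts in 57SCLC_allo against 0, 0 and 11.1 in 46LCNEC_allo (log2 fold change 10.71 ± 0.96 (SE), adjusted p = 0.000149), and only tumor 321 of the 46LCNEC_allo tumors was above 0. Its partner Pcsk2 was at 1910, 2592 and 2080 normalized counts in 57SCLC_allo against 0, 2.11 and 3.32 in 46LCNEC_allo, at least 552-fold higher. Chgb, a further granin, showed a log2 fold change of 8.41. Not all granule genes followed. Cpe, the carboxypeptidase that trims prohormones, was at 3794, 3951 and 3938 normalized counts in 57SCLC_allo against 1748, 1950 and 3717 in 46LCNEC_allo and Pam, which amidates peptides, at 2085, 2360 and 2538 normalized counts in 57SCLC_allo against 2562, 3051 and 2029 in 46LCNEC_allo, and neither was called (adjusted p = 0.0561 and 0.586).

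Of 19 genes for peptides and amine synthesis, 11 were tested, 7 were higher in 57SCLC_allo and none in 46LCNEC_allo. Calca, which encodes calcitonin and CGRP, was at 9013, 7477 and 6835 normalized counts in 57SCLC_allo against 0, 0 and 8.85 in 46LCNEC_allo (log2 fold change 11.81 ± 0.88 (SE), adjusted p = 7.17e-05). Ddc, which makes dopamine and serotonin from their precursors, was at 7337, 7610 and 7892 normalized counts in 57SCLC_allo against 38.4, 38.9 and 19.9 in 46LCNEC_allo (log2 fold change 7.89 ± 0.27 (SE), adjusted p = 6.91e-06), and the vesicular amine carrier Slc18a1 at 275, 259 and 369.9 normalized counts in 57SCLC_allo against 3.97, 1.05 and 2.21 in 46LCNEC_allo. Th, the first enzyme of catecholamine synthesis, was at 11.97, 67.9 and 67.0 normalized counts in 57SCLC_allo against 0 in each of the 3 46LCNEC_allo tumors (adjusted p = 0.000839). Pomc, the precursor of corticotropin, was at 189, 169.9 and 170.2 normalized counts in 57SCLC_allo against 9.27, 3.16 and 4.43 in 46LCNEC_allo (log2 fold change 4.85 ± 0.41 (SE), adjusted p = 0.000116). Penk, the enkephalin precursor, stood out in tumor 321 of 46LCNEC_allo (38.3, 21.2 and 32.9 normalized counts in 57SCLC_allo against 37.1, 2.11 and 813 in 46LCNEC_allo) and was not called. Npy, Sst, Tac1, Vip, Nts, Pdyn and Adcyap1 did not reach the minimum for testing, and Grp was listed at 0.

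The release machinery showed the same direction. In the synaptic vesicle list 18 of 25 tested genes were higher in 57SCLC_allo and none in 46LCNEC_allo (median log2 fold change 5.45). Pclo, a scaffold of the release site, was at 2983, 3400 and 2889 normalized counts in 57SCLC_allo against 0 in each of the 3 46LCNEC_allo tumors, at least 778-fold higher. Snap25, a SNARE protein of vesicle fusion, was at 2521, 3178 and 3029 normalized counts in 57SCLC_allo against 0, 0 and 1.11 in 46LCNEC_allo (log2 fold change 11.14 ± 0.38 (SE), adjusted p = 6.91e-06), and the small GTPase Rab3c at 2456, 3038 and 3184 normalized counts in 57SCLC_allo against 0, 1.05 and 2.21 in 46LCNEC_allo. Not every component reached 2-fold. Vamp2, the vesicle SNARE, was at 4598, 4667 and 4790 normalized counts in 57SCLC_allo against 2413, 3083 and 2374 in 46LCNEC_allo (log2 fold change 0.85). Syt13, of the synaptotagmin family, was at 902, 862 and 870.4 normalized counts in 57SCLC_allo against 98.0, 857 and 1257 in 46LCNEC_allo, with tumor 312 low and the groups overlapping.

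Transcription factors of neuroendocrine and neural fate were tested for 17 of 26 genes, 14 higher in 57SCLC_allo and 1, Sox4, higher in 46LCNEC_allo. Insm1, a zinc finger factor of endocrine and neuroendocrine differentiation, was at 18147, 27716 and 20112 normalized counts in 57SCLC_allo against 1.32, 0 and 4.43 in 46LCNEC_allo (log2 fold change 13.18 ± 0.58 (SE), adjusted p = 1.31e-05). It lies on chromosome 2, 146063841 to 146066940 of build GRCm39. Mycl, a growth-promoting factor often amplified in SCLC, was at 130278, 132708 and 128282 normalized counts in 57SCLC_allo against 53.0, 34.7 and 260.0 in 46LCNEC_allo (log2 fold change 10.68 ± 0.68 (SE), adjusted p = 3.89e-05), a 1639-fold difference with the 3 57SCLC_allo tumors within a narrow range. In the cultured cells Mycl was at 87115 ± 6258 (SD, n = 3) in 57SCLC_cell and 273 ± 53.8 in 46LCNEC_cell. Prox1, a homeobox factor of neural and endocrine cells, was at 6353, 8506 and 7810 normalized counts in 57SCLC_allo against 9.27, 6.32 and 5.53 in 46LCNEC_allo (log2 fold change 9.89 ± 0.24 (SE), adjusted p = 4.13e-06). Foxa2, an endoderm factor, was at 8424, 9848 and 8085 normalized counts in 57SCLC_allo against 19.9, 4.21 and 159 in 46LCNEC_allo (log2 fold change 8.40 ± 1.12 (SE), adjusted p = 0.000856), while cells of 46LCNEC held 3999 ± 456. Nfib, linked to spread in SCLC, was at 11174, 11692 and 12556 normalized counts in 57SCLC_allo against 8144, 9020 and 10205 in 46LCNEC_allo and was not called (log2 fold change 0.38 ± 0.12 (SE), adjusted p = 0.0344). Sox4 was at 3811, 3695 and 4053 normalized counts in 57SCLC_allo against 8245, 9185 and 7320 in 46LCNEC_allo (log2 fold change -1.09 ± 0.11 (SE), adjusted p = 0.000273), and it lost the 2-fold difference when library sizes were used for scaling (log2 fold change -0.83). Neurod1, Sox1 and Sox2 were listed at 0 in every sample.

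Neural RNA-binding proteins and ion channels were higher in 57SCLC_allo in most cases. Among the RNA-binding proteins this held for 12 of 16 tested genes, with none higher in 46LCNEC_allo. Srrm4, the splicing factor that switches exons to their neural form, was at 1068, 2405 and 1903 normalized counts in 57SCLC_allo against 0, 2.11 and 0 in 46LCNEC_allo, at least 451-fold higher (log2 fold change 10.18 ± 0.56 (SE), adjusted p = 2.35e-05), and its relative Srrm3 was at 4062, 4371 and 4505 normalized counts in 57SCLC_allo against 2.65, 2.11 and 7.74 in 46LCNEC_allo. Ptbp1, the repressor of neural exons, was at 1254, 1601 and 1457 normalized counts in 57SCLC_allo against 1446, 1286 and 1216 in 46LCNEC_allo with overlapping groups. Of 27 voltage-gated channel genes tested, 19 were higher in 57SCLC_allo and 3 in 46LCNEC_allo. Kcnh6, a potassium channel subunit, was at 5288, 4747 and 5322 normalized counts in 57SCLC_allo against 0, 2.11 and 1.11 in 46LCNEC_allo, at least 1288-fold higher. The exceptions were the calcium channels Cacna1d (91.0, 83.5 and 137 normalized counts in 57SCLC_allo against 544, 357 and 410.4 in 46LCNEC_allo) and Cacna1g (608, 616 and 507 normalized counts in 57SCLC_allo against 2167, 2173 and 977 in 46LCNEC_allo) and the sodium channel Scn2a (31.1, 56.6 and 32.9 normalized counts in 57SCLC_allo against 139, 103 and 149 in 46LCNEC_allo). Calls of Cacna1g and Scn2a were lost without single tumors (tumors 312, 319, 275, 316 or 317 for Cacna1g, and tumors 312, 321, 275 or 317 for Scn2a), with adjusted p of 0.0178 to 0.0280 and 0.0137 to 0.0245.

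**Figure D2:**
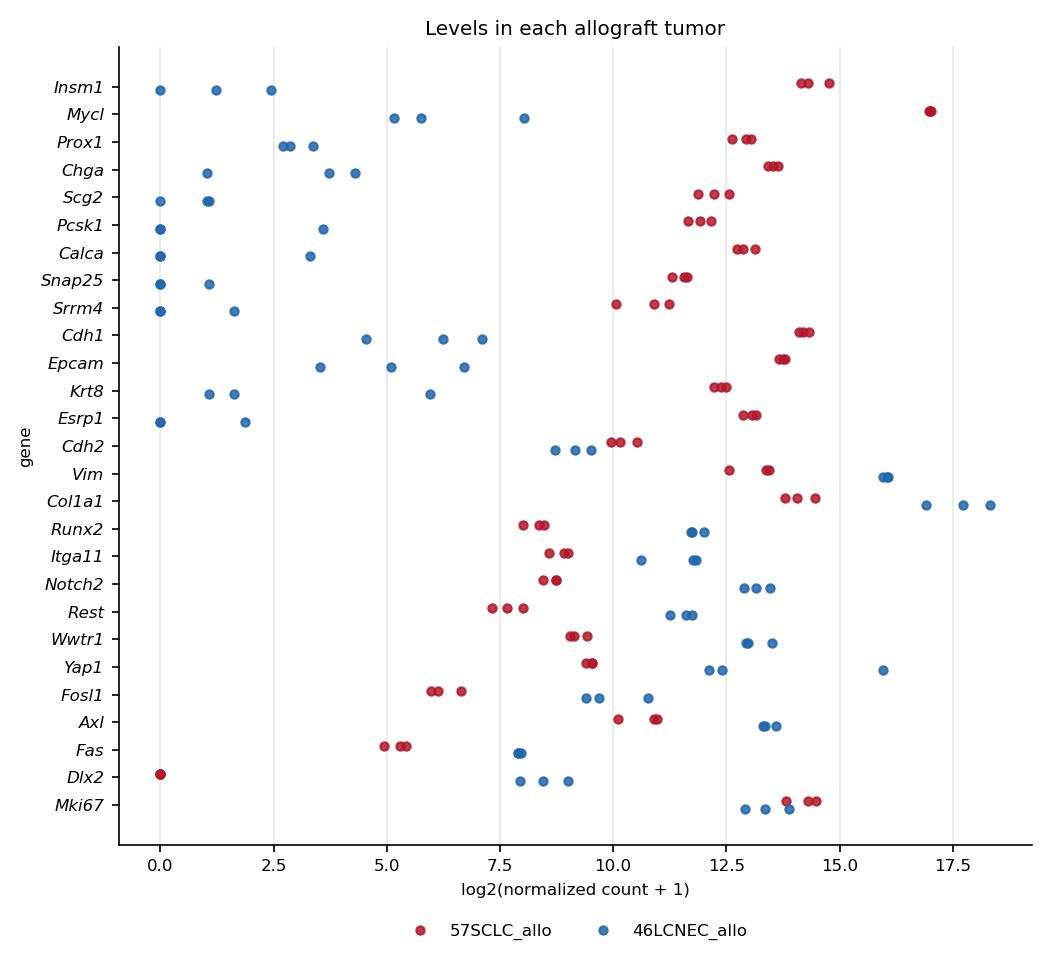
Levels of 27 genes in each allograft tumor, on the log2(normalized count + 1) scale, with 1 point per tumor, red for 57SCLC_allo and blue for 46LCNEC_allo. Insm1, Scg2 and Esrp1 lie at or near 0 in the blue tumors, Dlx2 is at 0 in the red tumors, and Mki67 overlaps between groups.

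Most Notch ligands tested were higher in 57SCLC_allo and most receptors in 46LCNEC_allo. Of 18 genes tested in the Notch and Rest list, 5 were higher in 57SCLC_allo and 9 in 46LCNEC_allo, the latter number falling to 5 without tumor 316 or 317. The former were the ligands Dll1, Dll3, Dll4 and Jag2 and the target Hes5. Dll1 was at 1640, 1927 and 1729 normalized counts in 57SCLC_allo against 230.5, 258 and 299.8 in 46LCNEC_allo (log2 fold change 2.75 ± 0.14 (SE), adjusted p = 1.91e-05) and Jag2 at 10710, 10737 and 10971 normalized counts in 57SCLC_allo against 519, 2578 and 731 in 46LCNEC_allo (log2 fold change 3.44 ± 0.55 (SE), adjusted p = 0.00191). Tumor 319 held more Jag2 than the other 46LCNEC_allo tumors, and the call missed the threshold without tumor 275, 316 or 317 (adjusted p 0.0104 to 0.0117). The receptors Notch1, Notch2 and Notch3 were higher in 46LCNEC_allo, and Notch4 was not called. Notch2 was at 428, 349.7 and 424 normalized counts in 57SCLC_allo against 7589, 9117 and 11302 in 46LCNEC_allo (log2 fold change -4.53 ± 0.17 (SE), adjusted p = 7.97e-06), Notch1 at 632, 437 and 561 normalized counts in 57SCLC_allo against 2521, 3570 and 2573 in 46LCNEC_allo (log2 fold change -2.41 ± 0.19 (SE), adjusted p = 9.78e-05), and the target Hes1 at 771, 696 and 629 normalized counts in 57SCLC_allo against 1878, 2911 and 1518 in 46LCNEC_allo (log2 fold change -1.54 ± 0.24 (SE), adjusted p = 0.00173). The ligand Jag1 was also higher there (668, 413 and 537 normalized counts in 57SCLC_allo against 3234, 3417 and 1480 in 46LCNEC_allo), as was the coactivator Maml2 (347, 296 and 369 normalized counts in 57SCLC_allo against 2981, 1444 and 4025 in 46LCNEC_allo). Rest, the repressor of neural genes, was at 201, 160.0 and 255 normalized counts in 57SCLC_allo against 3111, 3432 and 2429 in 46LCNEC_allo (log2 fold change -3.87 ± 0.21 (SE), adjusted p = 2.32e-05), a 14.6-fold difference. On build GRCm39 Rest lies on chromosome 5, 77408131 to 77434284. In culture Rest was at 7.11 ± 1.73 in 57SCLC_cell and 1900 ± 41.0 in 46LCNEC_cell. Notch2 was at 11.4 ± 0.952 and 10832 ± 301 in the same cells, so that 57SCLC_cell held less of both genes than 57SCLC_allo.

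Most epithelial genes were low or undetected in 46LCNEC_allo. Of 24 tested, 21 were higher in 57SCLC_allo and 2 in 46LCNEC_allo (median log2 fold change 7.92). Esrp1, which directs epithelial splicing, was at 7512, 9182 and 8576 normalized counts in 57SCLC_allo against 2.65, 0 and 0 in 46LCNEC_allo, at least 2120-fold higher. Cdh1, E-cadherin, was at 18679, 20444 and 17662 normalized counts in 57SCLC_allo against 74.2, 22.1 and 136 in 46LCNEC_allo (log2 fold change 8.25 ± 0.59 (SE), adjusted p = 6.22e-05). Epcam, an epithelial adhesion molecule, was at 14296, 13751 and 13007 normalized counts in 57SCLC_allo against 10.6, 103 and 33.2 in 46LCNEC_allo and the tight junction claudin Cldn3 at 9408, 9248 and 7394 normalized counts in 57SCLC_allo against 19.9, 0 and 2.21 in 46LCNEC_allo. Keratins of simple epithelia, Krt7 (14054, 16275 and 14568 normalized counts in 57SCLC_allo against 49.0, 4.21 and 9.96 in 46LCNEC_allo) and Krt8 (5355, 5750 and 4781 normalized counts in 57SCLC_allo against 60.9, 2.11 and 1.11 in 46LCNEC_allo), showed the same order. Low values were already present in culture, where 46LCNEC_cell held 165 ± 6.21 of Cdh1 and 2.13 ± 0.225 of Krt8. Krt19 was different, at 6902 ± 512 in 46LCNEC_cell and at 23.8, 5.26 and 11.1 in the tumors of that line. The basal keratin Krt14 was at 0 normalized counts in each of the 3 57SCLC_allo tumors against 1075, 72.6 and 50.9 in 46LCNEC_allo, called by limma (log2 fold change -7.32 ± 1.11 (SE), adjusted p = 0.00155) but not by edgeR (adjusted p = 0.0242), while DESeq2 gave it no adjusted p, with tumor 312 apart from the others.

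Mesenchymal genes ran the other way, with 19 of 23 higher in 46LCNEC_allo and 1, Cdh2, higher in 57SCLC_allo (median log2 fold change -2.90). Vim, the intermediate filament vimentin, was at 10686, 6043 and 11102 normalized counts in 57SCLC_allo against 68908, 63891 and 67342 in 46LCNEC_allo (log2 fold change -2.90 ± 0.25 (SE), adjusted p = 0.000125). S100a4, a calcium-binding protein of motile cells, was at 4.79, 4.25 and 15.9 normalized counts in 57SCLC_allo against 644, 987 and 837 in 46LCNEC_allo (log2 fold change -6.66 ± 0.49 (SE), adjusted p = 7.15e-05) and the homeobox factor Prrx2 at 105, 94.8 and 137 normalized counts in 57SCLC_allo against 2845, 2097 and 3068 in 46LCNEC_allo (log2 fold change -4.56 ± 0.21 (SE), adjusted p = 1.41e-05). Zeb1, Snai1 and Twist1, repressors of the epithelial state, had log2 fold changes of -3.82, -3.88 and -3.91. Cdh2, N-cadherin, was at 986, 1478 and 1138 normalized counts in 57SCLC_allo against 419.9, 567 and 729 in 46LCNEC_allo, higher in 57SCLC_allo by 1.08 on the log2 scale. Leaving out any of tumors 312, 319, 275, 316 or 317 ended the call of Cdh2 (adjusted p 0.0165 to 0.0333). Stromal cells of the recipient carry many of these genes too, and their markers are given below.

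Of the Hippo pathway genes, 7 of 15 tested were higher in 46LCNEC_allo and none in 57SCLC_allo, 46.7% beside 14.2% over all genes. Wwtr1, the coactivator TAZ, was at 558, 525 and 688 normalized counts in 57SCLC_allo against 7799, 11680 and 8121 in 46LCNEC_allo (log2 fold change -3.95 ± 0.19 (SE), adjusted p = 1.53e-05). Tead4, a DNA-binding partner of Yap1 and Wwtr1, was at 57.5, 46.7 and 67.0 normalized counts in 57SCLC_allo against 702, 579 and 657 in 46LCNEC_allo (log2 fold change -3.49 ± 0.21 (SE), adjusted p = 3.24e-05), and Ajuba, a scaffold that restrains the inhibitory kinases, at 254, 154 and 204 normalized counts in 57SCLC_allo against 2944, 1788 and 1850 in 46LCNEC_allo (log2 fold change -3.41 ± 0.26 (SE), adjusted p = 8.01e-05). Yap1 itself was at 673, 745 and 742 normalized counts in 57SCLC_allo against 64200, 5426 and 4464 in 46LCNEC_allo. Tumor 312 held far more than tumors 319 and 321, all 3 lay above 57SCLC_allo, and the adjusted p was above the threshold (log2 fold change -4.01 ± 0.96 (SE), adjusted p = 0.0112). The targets Ccn2 (1958, 2119 and 2445 normalized counts in 57SCLC_allo against 3389, 2102 and 1049 in 46LCNEC_allo) and Ankrd1 (31.1, 80.7 and 95.3 normalized counts in 57SCLC_allo against 748, 73.7 and 512 in 46LCNEC_allo) overlapped between groups. In culture Ccn2 was at 0 in all 3 57SCLC_cell samples and at 14456 ± 2066 in 46LCNEC_cell.

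AP-1 and immediate early genes were called for 5 of 15, all higher in 46LCNEC_allo, 33.3% beside 14.2% over all genes. The count was 1 without tumor 316 or 317, 2 without tumor 275, 3 without tumor 312 and 2 with library size scaling. Fosl1, a Fos family subunit of AP-1, was at 69.4, 62.3 and 98.7 normalized counts in 57SCLC_allo against 823, 1741 and 678 in 46LCNEC_allo (log2 fold change -3.70 ± 0.38 (SE), adjusted p = 0.000282). Fosl2 was at 3263, 3263 and 3485 normalized counts in 57SCLC_allo against 10272, 15356 and 6330 in 46LCNEC_allo (log2 fold change -1.58 ± 0.30 (SE), adjusted p = 0.00398) and the zinc finger factor Egr3 at 261, 143 and 273 normalized counts in 57SCLC_allo against 718, 2446 and 851 in 46LCNEC_allo (log2 fold change -2.39 ± 0.50 (SE), adjusted p = 0.00626), with tumor 319 highest for all 3. Both Fosl2 and Egr3 lost their calls when a tumor was left out, Fosl2 without 312, 275, 316 or 317 (adjusted p 0.0157 to 0.0202) and Egr3 without 275, 316 or 317 (adjusted p 0.0181 to 0.0270) and with library size scaling (0.0107). Jun and Fos were not called, at 6487, 9635 and 7039 normalized counts in 57SCLC_allo against 5324, 10744 and 6407 in 46LCNEC_allo for Jun and 754, 364 and 575 normalized counts in 57SCLC_allo against 556, 1792 and 634 in 46LCNEC_allo for Fos.

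Matrix genes were higher in 46LCNEC_allo for 24 of 31 collagens and collagen enzymes, with none higher in 57SCLC_allo (median log2 fold change -2.59). Col3a1, a fibrillar collagen, was at 8527, 8293 and 11840 normalized counts in 57SCLC_allo against 166609, 348626 and 123018 in 46LCNEC_allo (log2 fold change -4.35 ± 0.39 (SE), adjusted p = 0.000157). Col27a1 was at 326, 222 and 326 normalized counts in 57SCLC_allo against 6328, 6908 and 3374 in 46LCNEC_allo and the crosslinking oxidase Loxl4 at 28.7, 41.1 and 46.5 normalized counts in 57SCLC_allo against 1028, 542 and 421 in 46LCNEC_allo. Cultured 46LCNEC cells held 8276 ± 241 of Col3a1 against 1.11 ± 0.0843 in 57SCLC_cell. Tumors of both lines held far more Col3a1 than the cultured cells of the same line, and the part of recipient tissue was not tested. Of integrins and laminins, 16 of 27 were higher in 46LCNEC_allo and 1, the epithelial integrin Itgb6, in 57SCLC_allo (115, 146 and 132 normalized counts in 57SCLC_allo against 2.65, 1.05 and 4.43 in 46LCNEC_allo). Itgb8, an activator of latent TGF-beta, was at 26.3, 9.91 and 13.6 normalized counts in 57SCLC_allo against 685, 1193 and 809 in 46LCNEC_allo (log2 fold change -5.74 ± 0.41 (SE), adjusted p = 5.9e-05), Itgb4 of hemidesmosomes at 76.6, 53.8 and 80.6 normalized counts in 57SCLC_allo against 707, 844 and 1164 in 46LCNEC_allo and the vitronectin receptor subunit Itgav at 393, 392 and 521 normalized counts in 57SCLC_allo against 5020, 5457 and 4252 in 46LCNEC_allo.

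Genes of bone and cartilage formation were tested for 19 of 24, with 10 higher in 46LCNEC_allo and 1, the phosphatase Alpl, higher in 57SCLC_allo. Acan, the cartilage proteoglycan aggrecan, was at 2.39, 0 and 1.13 normalized counts in 57SCLC_allo against 505, 381 and 1345 in 46LCNEC_allo, at least 104-fold higher, or 61.7-fold without tumor 321 (log2 fold change -8.37 ± 0.64 (SE), adjusted p = 8.07e-05). Dlx3, a homeobox factor of bone and skin, was at 0, 1.42 and 3.4 normalized counts in 57SCLC_allo against 224, 1183 and 207 in 46LCNEC_allo, at least 74.9-fold higher (30.0-fold without tumor 319), and Pthlh, the parathyroid hormone-related peptide, at 2.39, 0 and 0 normalized counts in 57SCLC_allo against 135, 220.0 and 212 in 46LCNEC_allo. Sox9, the factor of the cartilage lineage, was at 28.7, 31.1 and 39.7 normalized counts in 57SCLC_allo against 972, 5825 and 2496 in 46LCNEC_allo (log2 fold change -6.16 ± 0.60 (SE), adjusted p = 0.000221). The collagenase Mmp13 was at 2437, 1542 and 2284 normalized counts in 57SCLC_allo against 48612, 1442 and 3003 in 46LCNEC_allo, with tumor 312 apart and the other tumors overlapping, and it was not called. Alpl was at 237, 246 and 268 normalized counts in 57SCLC_allo against 9.27, 1.05 and 28.8 in 46LCNEC_allo (log2 fold change 4.87 ± 0.91 (SE), adjusted p = 0.00377), and the call was lost without tumor 312, 275, 316 or 317 (adjusted p 0.0128 to 0.0186).

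Patterning factors differed in both directions. Of 20 tested homeobox and forkhead genes, 6 were higher in 57SCLC_allo and 8 in 46LCNEC_allo, 70% called either way beside 30.4% over all genes. Dlx2, a factor of forebrain interneurons, was at 0 normalized counts in each of the 3 57SCLC_allo tumors against 351, 509 and 243 in 46LCNEC_allo, at least 51.2-fold higher in 46LCNEC_allo (log2 fold change -8.46 ± 0.38 (SE), adjusted p = 1.34e-05). It was at 0.249 ± 0.432 in Lung and at 1048 ± 62.9 in 46LCNEC_cell. On the other side stood En2, a midbrain and hindbrain factor (3653, 4848 and 3396 normalized counts in 57SCLC_allo against 18.5, 13.7 and 22.1 in 46LCNEC_allo), Hoxb9 (3052, 2544 and 2376 normalized counts in 57SCLC_allo against 22.5, 17.9 and 128 in 46LCNEC_allo) and the corepressor Skor2 (874, 1301 and 793 normalized counts in 57SCLC_allo against 2.65, 0 and 2.21 in 46LCNEC_allo). Skor2 was far lower in culture, at 40.4 ± 14.96 in 57SCLC_cell. En1, the relative of En2, was higher in 46LCNEC_allo (115, 79.3 and 111 normalized counts in 57SCLC_allo against 963, 390.5 and 649 in 46LCNEC_allo).

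Beyond the lists, the largest differences were those of Spock1, a matrix proteoglycan (4852, 9111 and 7309 normalized counts in 57SCLC_allo against 0 in each of the 3 46LCNEC_allo tumors, at least 1784-fold higher in 57SCLC_allo), Slc35d3, a transporter of the nucleotide sugar family (at least 2363-fold), and Dscaml1, a neural adhesion molecule (at least 979.9-fold). In 46LCNEC_allo the leading gene was Mme, the neutral endopeptidase that degrades peptides, at 14.4, 2.83 and 6.81 normalized counts in 57SCLC_allo against 20951, 29165 and 18346 in 46LCNEC_allo (log2 fold change -11.50 ± 0.49 (SE), adjusted p = 1.14e-05), located on chromosome 3, 63148889 to 63293451. Mme was at 774 ± 61.5 in 46LCNEC_cell and at 4532 ± 83.9 in Lung, both under its tumor level. The cannabinoid receptor Cnr1 (0, 1.42 and 4.54 normalized counts in 57SCLC_allo against 1087, 2084 and 1625 in 46LCNEC_allo) and the developmental phosphatase Eya1 (4.79, 0 and 0 normalized counts in 57SCLC_allo against 722, 1809 and 985 in 46LCNEC_allo) came next. Smim43 was at 621, 298 and 949 in 46LCNEC_allo, at 0 in 57SCLC_allo and at 7.18 ± 1.44 in 46LCNEC_cell. The RNA-binding protein Igf2bp1 was at least 71.4-fold higher in 46LCNEC_allo.

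Surface molecules used as drug targets were called for 13 of 20 genes, 65% beside 30.4% over all genes. Higher in 57SCLC_allo were Sez6 (3174, 2799 and 2641 normalized counts in 57SCLC_allo against 2.65, 3.16 and 3.32 in 46LCNEC_allo, at least 723-fold), the receptor Erbb3 (1956, 2255 and 2054 normalized counts in 57SCLC_allo against 19.9, 14.7 and 15.5 in 46LCNEC_allo; log2 fold change 6.89 ± 0.20 (SE), adjusted p = 5.55e-06), Cd24a, Kit, St8sia1 and Dll3. Higher in 46LCNEC_allo were the receptor kinases Met, Epha2, Erbb2, Egfr, Fgfr1 and Axl and the immune ligand Vtcn1. Met, the receptor of hepatocyte growth factor, was at 31.1, 58.0 and 82.8 normalized counts in 57SCLC_allo against 3017, 17279 and 30720 in 46LCNEC_allo (log2 fold change -7.75 ± 0.84 (SE), adjusted p = 0.000349), and it varied widely among the 46LCNEC_allo tumors. Epha2 was at 93.4, 176 and 158 normalized counts in 57SCLC_allo against 1891, 1765 and 2163 in 46LCNEC_allo (log2 fold change -3.81 ± 0.25 (SE), adjusted p = 4.51e-05) and Erbb2 at 119.7, 73.6 and 149.8 normalized counts in 57SCLC_allo against 1347, 1051 and 1022 in 46LCNEC_allo (log2 fold change -3.35 ± 0.28 (SE), adjusted p = 0.000119). Cd47, the signal that restrains macrophages, was at 5144, 4553 and 5242 normalized counts in 57SCLC_allo against 5305, 4711 and 5109 in 46LCNEC_allo, with overlapping groups (log2 fold change -0.02 ± 0.10 (SE), adjusted p = 0.886).

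Death receptor genes were higher in 46LCNEC_allo for 10 of 17 tested and in 57SCLC_allo for none, 58.8% beside 14.2% over all genes. Ripk3, the kinase of necroptosis, was at 247, 171 and 234 normalized counts in 57SCLC_allo against 2347, 1531 and 914 in 46LCNEC_allo (log2 fold change -2.79 ± 0.35 (SE), adjusted p = 0.000627), and the receptor Fas at 38.3, 29.7 and 42.0 normalized counts in 57SCLC_allo against 250.3, 239 and 238 in 46LCNEC_allo (log2 fold change -2.71 ± 0.24 (SE), adjusted p = 0.000151). In culture Fas was at 0 in all 3 57SCLC_cell samples and at 136 ± 30.7 in 46LCNEC_cell. The adaptor Fadd was at 122, 117 and 129 normalized counts in 57SCLC_allo against 129.8, 83.2 and 150.5 in 46LCNEC_allo and the initiator caspase Casp8 at 1297, 1073 and 1151 normalized counts in 57SCLC_allo against 1630, 1754 and 1693 in 46LCNEC_allo, and neither was called.

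Several antigen presentation and interferon genes were highest in tumor 321. Of 12 class I presentation genes tested, Tap2, Tapbp and Psmb8 were called, all higher in 46LCNEC_allo, 25% beside 14.2% over all genes. DESeq2 on the recovered reads called 7, the fit with all 15 samples 6 and limma without tumor 312 also 7. Psmb8, an immunoproteasome subunit, was at 189, 123 and 180.4 normalized counts in 57SCLC_allo against 682, 863 and 1829 in 46LCNEC_allo (log2 fold change -2.66 ± 0.38 (SE), adjusted p = 0.00123) and the peptide transporter Tap2 at 493, 335 and 449 normalized counts in 57SCLC_allo against 1505, 1270 and 3086 in 46LCNEC_allo, whose call was lost without tumor 316 or 317 (adjusted p = 0.0120 and 0.0102). The class I heavy chain H2-K1 was at 4436, 3145 and 3351 normalized counts in 57SCLC_allo against 3744, 9429 and 19492 in 46LCNEC_allo and overlapped between groups. Of 21 interferon response genes, 5 were higher in 46LCNEC_allo, 23.8% beside 14.2% over all genes. Among them were Ifit2 (134, 232 and 292 normalized counts in 57SCLC_allo against 1454, 1281 and 2053 in 46LCNEC_allo, log2 fold change -2.90 ± 0.32 (SE), adjusted p = 0.000365) and the RNA sensor Ddx58 (440.5, 377 and 409 normalized counts in 57SCLC_allo against 1926, 1914 and 2741 in 46LCNEC_allo, log2 fold change -2.40 ± 0.17 (SE), adjusted p = 5.68e-05). Oasl2 was also called (512, 381 and 573 normalized counts in 57SCLC_allo against 1201, 1560 and 3625 in 46LCNEC_allo), but not without tumor 319, 275, 316 or 317 or with library size scaling (adjusted p 0.0114 to 0.0280). Irf7 (249, 232 and 314 normalized counts in 57SCLC_allo against 196, 94.7 and 1534 in 46LCNEC_allo) and Gbp2 (737, 331 and 524 normalized counts in 57SCLC_allo against 805, 547 and 3736 in 46LCNEC_allo) were highest in tumor 321 and were not called.

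**Figure D3:**
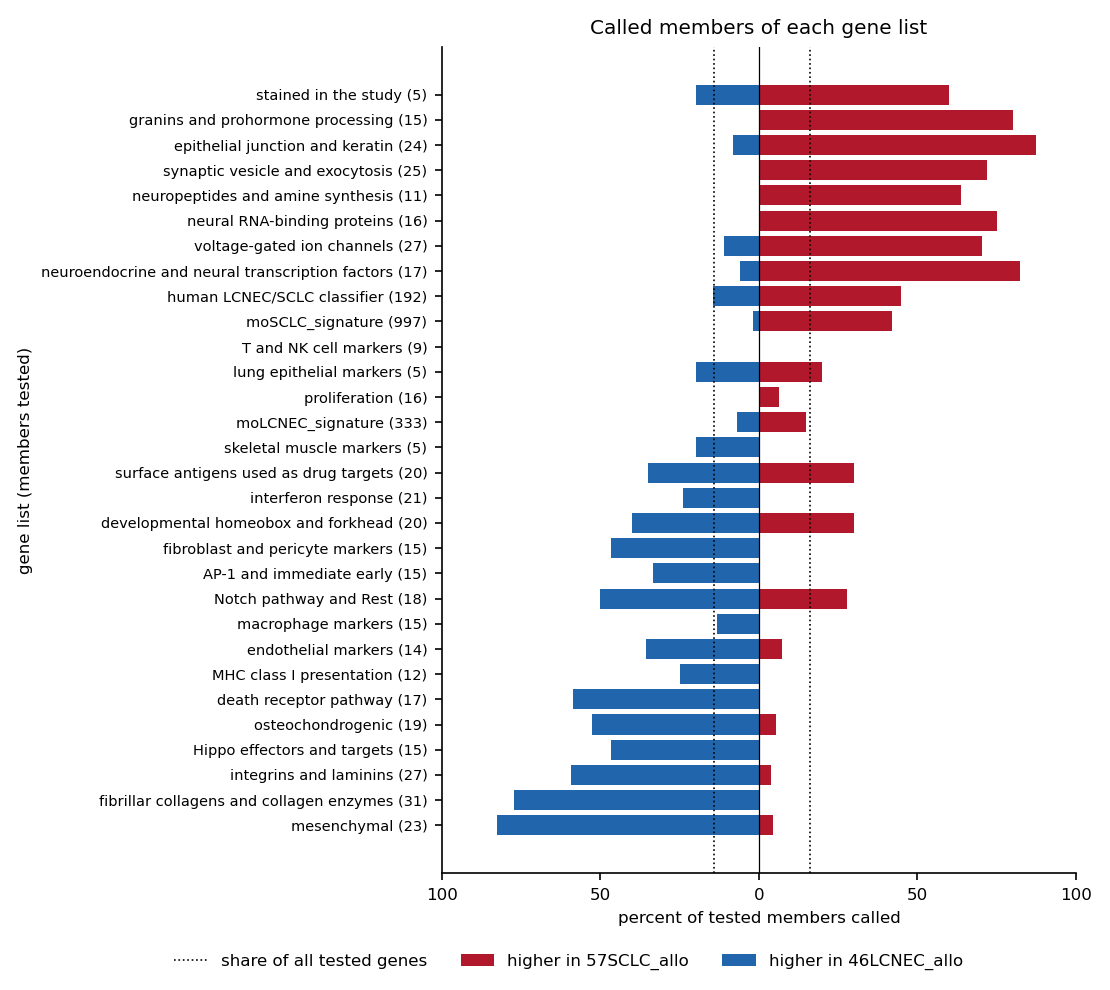
Percent of the tested members of each gene list that were called higher in 57SCLC_allo (red, to the right) or higher in 46LCNEC_allo (blue, to the left), for lists with at least 5 tested members, whose number stands in parentheses, ordered by median log2 fold change. Dotted lines mark 16.1% and 14.2%, the shares over all tested genes, and granin, epithelial and synaptic lists lie on the right while mesenchymal and collagen lists lie on the left.

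Of 16 proliferation genes tested, 1 was called, 6.25% beside 30.4% over all genes. It was the mitotic cyclin Ccnb1, at 1685, 1782 and 1625 normalized counts in 57SCLC_allo against 739, 757 and 642 in 46LCNEC_allo (log2 fold change 1.25 ± 0.11 (SE), adjusted p = 0.000133). Mki67, the marker of cycling cells, was at 14542, 22729 and 20107 normalized counts in 57SCLC_allo against 10411, 15054 and 7747 in 46LCNEC_allo (log2 fold change 0.82 ± 0.28 (SE), adjusted p = 0.0422), and Top2a at 8371, 8920 and 8501 normalized counts in 57SCLC_allo against 6004, 8019 and 5735 in 46LCNEC_allo (log2 fold change 0.40 ± 0.15 (SE), adjusted p = 0.0524). Both were far above Lung, which held 662 ± 62.4 of Mki67 and 259.5 ± 63.0 of Top2a. The median log2 fold change of the list was 0.39.

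RNA of recipient cells was present in all 6 tumors. Macrophage markers, 16 genes of which Itgam was listed at 0, summed to 30971 to 61104 normalized counts in 57SCLC_allo, 55279 to 196792 in 46LCNEC_allo and at most 491 in cultured cells. Of 15 tested, Csf1r (1956, 1055 and 1718 normalized counts in 57SCLC_allo against 6801, 4867 and 7817 in 46LCNEC_allo) and Adgre1 (366, 242 and 348 normalized counts in 57SCLC_allo against 1252, 793 and 2276 in 46LCNEC_allo) were called, both higher in 46LCNEC_allo, 13.3% beside 14.2% over all genes. DESeq2 called 7 and the fit with all 15 samples 6, and limma called 4 without tumor 319 and 1 without tumor 312, 275, 316 or 317. The call of Adgre1 was lost without tumor 312, 275, 316 or 317 (adjusted p 0.0140 to 0.0191). The class II genes in this list set tumor 321 apart, with Cd74 at 10705, 4074 and 6742 normalized counts in 57SCLC_allo against 2697, 1093 and 52617 in 46LCNEC_allo. T and NK cell markers summed to 326 to 608 in 57SCLC_allo, to 126 and 84.2 in tumors 312 and 319 and to 2081 in tumor 321, and none of the 9 tested was called. Without tumor 321, 5 of them were higher in 57SCLC_allo. Cd8a was at 38.3, 32.6 and 42.0 normalized counts in 57SCLC_allo against 13.2, 2.11 and 403 in 46LCNEC_allo.

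Endothelial markers, 14 genes, summed to 14346 to 16168 in 57SCLC_allo and 14516 to 20523 in 46LCNEC_allo. The sum includes Vwf, which was high in cultured 57SCLC cells (7395 ± 326) and in 57SCLC_allo (6628, 8295 and 7134) but not in 46LCNEC_allo (238, 33.7 and 169). Cdh5, the cadherin of vessels, was at 1204, 927 and 1197 normalized counts in 57SCLC_allo against 3735, 2143 and 3153 in 46LCNEC_allo (log2 fold change -1.41 ± 0.22 (SE), adjusted p = 0.0018), and Cldn5, Tie1, Kdr and Egfl7 were higher in 46LCNEC_allo too, 5 of 14 in all. With Vwf, called higher in 57SCLC_allo, 42.9% of the list was called either way beside 30.4% over all genes. DESeq2 called 8 higher in 46LCNEC_allo, and limma called 10 there without tumor 319 and 3 without tumor 312, 275 or 316. For Egfl7 the call did not hold under library size or TMM scaling, a pseudocount of 0.1, or without tumor 312, 321, 275, 316 or 317 (adjusted p 0.0104 to 0.0317). Fibroblast and pericyte markers, 15 genes, summed to 15280 to 22206 in 57SCLC_allo, 85502 to 122907 in 46LCNEC_allo and 18312 to 18982 in 46LCNEC_cell. Of these genes 7 were called, all higher in 46LCNEC_allo, 46.7% beside 14.2% over all genes. Pdgfra was at 716, 416 and 757 normalized counts in 57SCLC_allo against 12346, 10868 and 16369 in 46LCNEC_allo (log2 fold change -4.41 ± 0.26 (SE), adjusted p = 3.06e-05). Lum, a proteoglycan at 0.736 ± 1.27 in 46LCNEC_cell, was at 213, 239 and 236 normalized counts in 57SCLC_allo against 1899, 3387 and 8259 in 46LCNEC_allo (log2 fold change -4.03 ± 0.49 (SE), adjusted p = 0.000554). Rgs5 of pericytes was at 2581, 1971 and 2910 normalized counts in 57SCLC_allo against 1344, 678 and 1844 in 46LCNEC_allo and Acta2 of smooth muscle at 2250, 1686 and 2617 normalized counts in 57SCLC_allo against 4505, 1683 and 1502 in 46LCNEC_allo, and neither was called. The part of stromal cells in the matrix and mesenchymal differences was not tested.

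Other cell types were low. Lung epithelial markers, 12 genes, summed to 475 to 586 in 57SCLC_allo and 764 to 2797 in 46LCNEC_allo against 444835 to 569020 in Lung. The surfactant gene Sftpc was at 7.18, 22.6 and 7.94 normalized counts in 57SCLC_allo against 7.95, 2.11 and 5.53 in 46LCNEC_allo. Of 5 tested, Foxj1 of ciliated cells was called higher in 57SCLC_allo and Hopx of alveolar cells higher in 46LCNEC_allo. This made 40% called either way beside 30.4% over all genes. Adipocyte markers, 9 genes, summed to 1137 to 2040 and 728 to 3600, with tumor 312 highest. None of 3 tested was called by limma, while DESeq2 called 1 higher in 57SCLC_allo and 2 higher in 46LCNEC_allo. Skeletal muscle markers, 12 genes, summed to 154 to 227 and 99.6 to 326, with tumor 319 highest. Of 5 tested, 1, Tnni2, was called higher in 46LCNEC_allo, 20% beside 14.2% over all genes. Red blood cell markers, 5 genes, summed to 238 to 2276 and 368 to 846, with tumor 275 highest, and none of 3 tested was called.

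A group of 380 tested genes was at or under 3 reads in all 6 cell samples, and 24 of these were higher in 57SCLC_allo and 49 in 46LCNEC_allo. The 19.2% called among them stand beside 30.4% over all genes tested. On the 57SCLC_allo side Mmp12, the macrophage elastase, was at 4426, 3069 and 5722 normalized counts in 57SCLC_allo against 215, 196 and 111 in 46LCNEC_allo (log2 fold change 4.67 ± 0.32 (SE), adjusted p = 5.12e-05), and the chemokine Ccl24 was at 491, 139 and 246 normalized counts in 57SCLC_allo against 6.62, 4.21 and 1.11 in 46LCNEC_allo (log2 fold change 5.88 ± 0.65 (SE), adjusted p = 0.00037). Retnla, a product of alternatively activated macrophages, was at 563, 120.3 and 88.5 normalized counts in 57SCLC_allo against 7.95, 0 and 0 in 46LCNEC_allo. On the 46LCNEC_allo side Fcrls, another macrophage gene, was at 76.6, 144 and 242 normalized counts in 57SCLC_allo against 4532, 3604 and 707 in 46LCNEC_allo (log2 fold change -4.01 ± 0.76 (SE), adjusted p = 0.00401). These genes were chosen for their level in this set after their values were seen. The 49 genes higher in 46LCNEC_allo also held the macrophage marker Adgre1, the fibroblast marker Lum and the endothelial genes Cdh5, Cldn5, Tie1 and Egfl7, given above.

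Y-linked genes separated the groups. Ddx3y was at 0 normalized counts in each of the 3 57SCLC_allo tumors against 381, 280.0 and 522 in 46LCNEC_allo, at least 54.9-fold higher in 46LCNEC_allo (log2 fold change -8.58 ± 0.36 (SE), adjusted p = 1.1e-05), and Uty (0 normalized counts in each of the 3 57SCLC_allo tumors against 246, 140.0 and 268 in 46LCNEC_allo), Eif2s3y (0 normalized counts in each of the 3 57SCLC_allo tumors against 162, 115 and 266 in 46LCNEC_allo) and Kdm5d (0 normalized counts in each of the 3 57SCLC_allo tumors against 126, 106 and 142 in 46LCNEC_allo) showed the same order. All 4 were at 0 in every cultured sample of both lines, and Ddx3y was at 829 in 1 Lung sample and at 0 in the other 2. Xist was listed at 0 in all 15 samples and gives no check. Among tumors, Y-linked RNA was thus found only in 46LCNEC_allo, and it was found in neither cultured line. The part of recipient sex in other differences was not tested.

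Immunoglobulin genes were looked at after a stretch of chromosome 6 that holds light chain genes stood out (below). Of 45 tested, none was called by limma, and 6 had an unadjusted p under 0.05. Their sum was 190977, 14190 and 19629 normalized counts in 57SCLC_allo and 942, 322 and 59251 in 46LCNEC_allo, against 1.54 to 12.1 in cultured cells and 30596 to 33408 in Lung. Tumors 312 and 319 were thus far under the other 4 tumors. Ighg1, an IgG heavy chain gene, was at 148123, 1401 and 3622 normalized counts in 57SCLC_allo against 59.6, 7.37 and 7989 in 46LCNEC_allo, and Jchain, which links secreted IgA and IgM, at 6372, 1213 and 894 normalized counts in 57SCLC_allo against 59.6, 7.37 and 4084 in 46LCNEC_allo. Reads of variable genes can be split among near-identical copies, so single variable genes are uncertain.

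**Figure D4:**
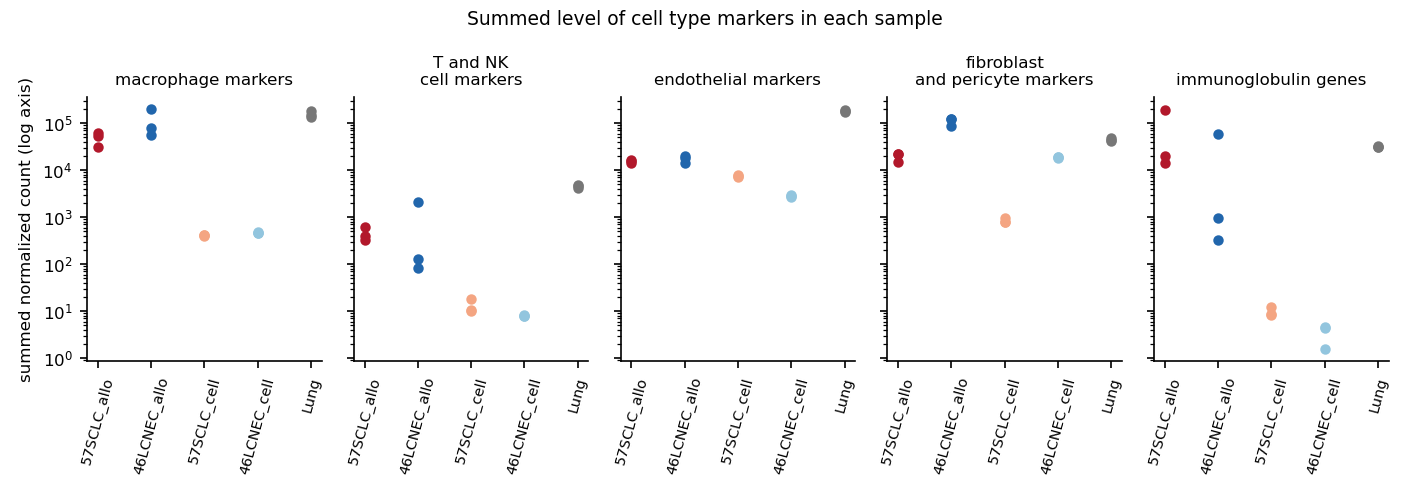
Summed normalized counts (log axis) of macrophage, T and NK cell, endothelial, and fibroblast and pericyte markers and of immunoglobulin genes, with 1 point for each of the 3 samples of the 5 groups. Tumor 321 is the highest 46LCNEC_allo point for macrophage, T and NK cell and immunoglobulin genes, and the 3 46LCNEC_allo points lie above 57SCLC_allo for fibroblast and pericyte markers.

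Signatures the study had drawn from spontaneous tumors of its mice were counted next, and the study had applied them to these samples as well. Each signature holds genes higher in spontaneous tumors of its type than in normal lung. By enrichment analysis, the study reported each signature as enriched in the allografts of its own type. The counts here set 57SCLC_allo against 46LCNEC_allo, a different comparison, and do not check that result. Of 997 tested genes of the SCLC signature, 419 were higher in 57SCLC_allo (42.0%) and 18 in 46LCNEC_allo (1.81%), with a median log2 fold change of 0.86. Of 333 tested genes of the LCNEC signature, 49 were higher in 57SCLC_allo (14.7%) and 23 in 46LCNEC_allo (6.91%), with a median of 0.27. Both LCNEC signature shares lay under the 16.1% and 14.2% over all genes. The signatures share 256 tested genes. Among the 77 tested genes of the LCNEC signature alone, 17 were higher in 57SCLC_allo (22.1%) and 20 in 46LCNEC_allo (26.0%), beside 16.1% and 14.2% over all genes. Among the 741 of the SCLC signature alone, 387 were higher in 57SCLC_allo (52.2%) and 15 in 46LCNEC_allo (2.02%). Of 192 tested genes of the classifier for human LCNEC and SCLC, 86 were higher in 57SCLC_allo and 28 in 46LCNEC_allo. This made 59.4% called either way beside 30.4% over all genes.

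Most differences between the tumors were also present between the cultured lines. Of the 2697 genes higher in 57SCLC_allo that had enough counts in cells, 2291 (84.9%) were at least 2-fold higher in 57SCLC_cell than in 46LCNEC_cell, and 33 were at least 2-fold lower. Of 2283 genes higher in 46LCNEC_allo, 1858 (81.4%) were at least 2-fold higher in 46LCNEC_cell and 40 at least 2-fold lower. These are descriptions, with no test in the cells. The share of all tested genes that differed 2-fold between the cultured lines was not counted, so no background stands beside these shares.

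Differences were unevenly spread along the genome. On chromosome 7, 23.1% of tested genes were higher in 57SCLC_allo and 8.97% in 46LCNEC_allo (median log2 fold change 0.44), and on chromosome 8 the shares were 22.1% and 8.87% (median 0.36). Chromosome 3 was tilted the other way, with 11.6% and 21.7% (median -0.36), as was chromosome X, with 11.5% and 20.0% (median -0.33). In the cultured cells the medians were 0.55, 0.58, -0.50 and -0.19 for the same chromosomes. Of 267 stretches of 10 Mb with at least 10 tested genes, 47 had a median of at least 0.5 either way in the tumors, and 43 of these had the same sign in the cells. Over the 267 stretches Pearson's r between tumors and cells was 0.69, a description over points that share a line's genome. The largest medians lay on chromosome 6 from 60 to 70 Mb (2.21 over 42 genes in tumors, -0.43 over 21 in cells) and on chromosome 14 from 10 to 20 Mb (1.85 over 27 and 1.43 over 25). Cell medians cover only genes with enough counts in cells, so the medians of the chromosome 6 stretch are not of the same genes. In that stretch 4 genes were called higher in 57SCLC_allo and 3 in 46LCNEC_allo. The chromosome 6 stretch holds the immunoglobulin light chain genes. That of chromosome 14 holds a family of near-identical predicted genes, such as Gm3739 and Gm2974, whose reads can be split among copies. Coordinates are those of build GRCm39. Gene copy number was not measured here.

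**Figure D5:**
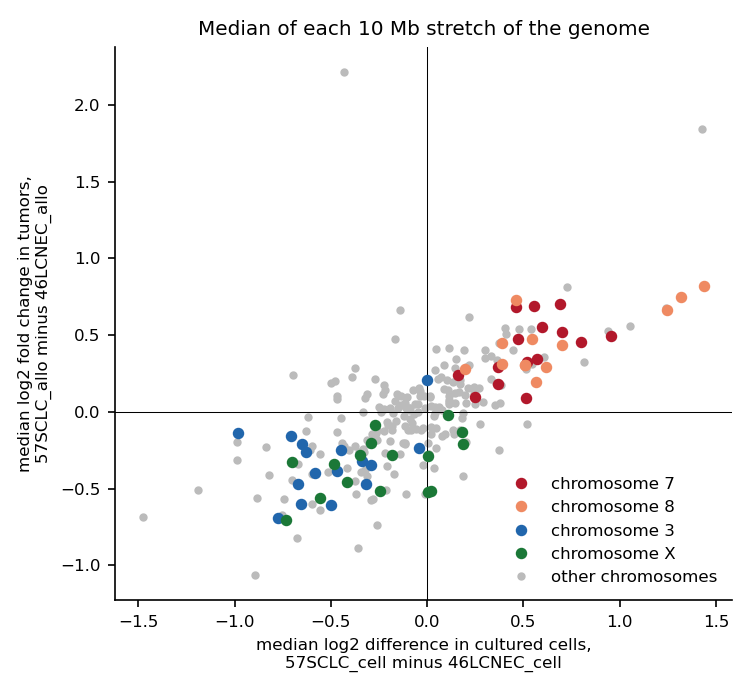
Median log2 fold change of the tested genes in each of 267 stretches of 10 Mb, in the tumors (vertical axis) against the median difference in the cultured cells (horizontal axis). Points of chromosomes 7 and 8 lie mostly to the upper right and those of chromosome 3 mostly to the lower left, and the highest point is the stretch of chromosome 6.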

How the data were processed

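Poly-A RNA of the tumors, cultured cells and lungs was sequenced as paired ends on a NovaSeq. The authors aligned reads with Rbowtie2 to GRCm39, counted them with featureCounts against GENCODE M27 and deposited counts divided by DESeq2 size factors, a signal in whole-read multiples. Whole reads were recovered from these steps (tolerance 0.01 of a read) and summed as depth. The tumors with fewer reads have higher detection limits. Normalized counts were log2-transformed after adding 1. The main test was limma (3.58.1) with an intensity trend on the 6 tumors, over genes that reached 10 normalized counts in 3 or more of the tumors, and a gene was called at an adjusted p of at most 0.01 and a change of at least 2-fold. Nothing says that the tumors grew in separate mice, so p-values measure only the spread between these tumors. Coordinates of genes are from GENCODE M39 on GRCm39 and promoters from RefSeq on GRCm38.p6. Members of the comparison and gene lists were chosen with earlier results of these data known. By rule, the text names per direction the 8 largest differences among called protein-coding genes with 100 or more in each tumor of the higher group, up to 3 called members per list and direction with a mean of at least 100, and the deleted, stained and sex-linked genes. Further list members, uncalled ones among them, were named after their values were seen. Results for some genes that the rule names are not reported here. Alternatives were edgeR (4.0.16) and DESeq2 (1.42.0) on the recovered reads, other scalings, pseudocounts, filters and thresholds, a test against 2-fold, all 15 samples in the fit, and each tumor left out in turn. The procedures were tested on simulated data.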

Additional observations from a re-analysis of the deposited data

Results flagged for a closer look

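Cdh2 and Alpl stood the other way round in culture, where each group's 3 samples did not cross in either setting. Cdh2 was higher in 57SCLC_allo than in 46LCNEC_allo (log2 fold change 1.08) but lower in 57SCLC_cell than in 46LCNEC_cell by 0.59 (log2 difference -0.59). Alpl was higher in 57SCLC_allo (log2 fold change 4.87) and lower in 57SCLC_cell (log2 difference -0.90). The difference between tumors and cells was not tested.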

How the results depend on the processing

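The number of genes called was 5312 and stayed between 4645 and 6381 under the other tools, scalings, pseudocounts, filters and thresholds (edgeR 5197, DESeq2 5888, all 15 samples 6341), except that a test against a 2-fold difference called 2861 genes, 1677 higher in 57SCLC_allo and 1184 higher in 46LCNEC_allo. Scaling by library size called 5537 genes and raised the share higher in 57SCLC_allo from 53.1% to 64.7% of calls. With 1 tumor left out, 4118 to 5487 genes were called, 2153 to 3109 higher in 57SCLC_allo and 1965 to 2448 higher in 46LCNEC_allo. Of 104 named genes tested, 21 lost the call under at least 1 of 18 alternatives, 7 of them only in the test against 2-fold and 12 without a single tumor. Trp53, not called, turned in direction without tumor 312 of 46LCNEC_allo (log2 fold change -0.026, and up to 0.15 with another tumor left out). Rbl1 was called with library size scaling (1.15) and without tumor 319 of 46LCNEC_allo (1.05). The 68 counts of list members per direction were each compared under the 18 alternatives. In 1114 of these comparisons the count stayed within 1.5 times, and in 110 it did not. The former include counts of 0 that stayed at 0. The list of granins stayed at 11 to 13 genes higher in 57SCLC_allo, synaptic genes at 16 to 21, neural RNA-binding proteins at 12 and epithelial genes at 19 to 21. Collagens stayed at 18 to 26 higher in 46LCNEC_allo and mesenchymal genes at 16 to 19. Counts higher in 46LCNEC_allo varied more for class I presentation (1 to 7), interferon (2 to 6), macrophage (0 to 7), endothelial (0 to 10) and AP-1 genes (1 to 6). With DESeq2, 3 in place of 1 of the integrins and laminins were higher in 57SCLC_allo, 1 in place of 0 muscle markers, and 2 in place of 1 lung epithelial markers were higher in 46LCNEC_allo. The causes were not tested. No paired analysis was possible because the tumors compared share no replicate numbers. Low counts limit fold changes against undetected groups to lower bounds.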
